A study of Mus musculus with 4 samples.

Results

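The genes described here are the mouse genes for mitochondrial ribosomal proteins, chosen by name as every gene whose symbol is Mrpl or Mrps followed by a number and, for some, a letter. They are 76 of the 12597 genes that had a row of their own in at least 1 library, 47 of them Mrpl genes and 29 Mrps genes, and they lie on 17 chromosomes. All 76 carried Gene Ontology terms for both the mitochondrion and the ribosome in the deposited annotation, although Mrps36 is not placed in the ribosome in later structures. Expression was measured by RNA-seq in bone marrow cells of C57BL/6 mice that were wild type (WT) or lacked GRK6 (GRK6-/-), a kinase that phosphorylates G protein-coupled receptors. The 2 genotypes and 2 cell gates gave 1 library each, called WT and GRK6-/- HSC and WT and GRK6-/- CLP. Where 4 values stand in a row, they follow this order. HSC stands for cells sorted as Lin-c-kit+sca-1+, a gate that holds multipotent progenitors beside hematopoietic stem cells, and CLP for common lymphoid progenitors sorted as Lin-c-kit+sca-1+Il-7Ra+.

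Each library pooled 13 to 15 hand-picked cells from 3 to 4 mice, and the cDNA was amplified by 20 and then 10 cycles of PCR, so no value has a replicate. The knockout mice lack several Grk6 exons in every cell, no treatment is named for either genotype, and age is not in the labels used here. Values are FPKM (fragments per kilobase of transcript, scaled to sequencing depth). The spacing of low values gave an estimated depth of 2790000 to 4360000 fragments per library. The paper states a several-fold larger number of reads for each lineage, and this difference was not examined. A ratio below is the log2 ratio of FPKM + 1 between 2 libraries, and a gene is counted as past the threshold when this ratio is at least 1 or at most -1. Since pools of cells were measured, fewer cells of a type and less RNA per cell cannot be told apart.

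Some marker levels went against the labels. Grk6 itself stood at 42.7 FPKM in WT HSC and 26.9 in WT CLP, but at 89.4 and 57.6 in the libraries labelled GRK6-/- HSC and GRK6-/- CLP, and a value over the whole gene cannot show whether the deleted exons were read. Each ratio between genotypes below is therefore between a library labelled GRK6-/- and a library labelled WT. Il7r, which defines the CLP gate, had no row in WT HSC and 1.08 FPKM in GRK6-/- HSC, beside 120 and 75.2 in the CLP libraries, whereas Ly6a, which encodes sca-1, had no row in any library. The summed level of 9 erythroid markers was 38.1, 746, 19.8 and 17530 FPKM in the order of the libraries given above. Nearly all of the last value was the globin gene Hba-a2, and most of the GRK6-/- HSC value was Car1. The summed level of 9 myeloid markers was 17850, 11340, 9385 and 7810 FPKM in the same order. The sums were 336, 464, 434 and 703 FPKM for 10 stem and progenitor markers, 180, 140, 2776 and 1927 for 7 CLP markers and 41.9, 35.5, 310 and 1566 for 9 B-lineage markers. Flt3 is in both the stem and progenitor list and the CLP list. Cd34, at 151, 338, 165 and 244 FPKM, was the largest part of the stem and progenitor sum in every library. The part of these cell markers in the ratios below was not tested.

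Mitochondria keep a small genome whose messenger RNAs encode core subunits of the respiratory chain and the ATP synthase, and a dedicated ribosome inside the organelle translates them. All protein components of this ribosome are encoded in the nucleus, made in the cytosol and imported, the Mrpl proteins mainly for the large subunit and the Mrps proteins mainly for the small subunit. Many descend from bacterial ribosomal proteins, and others have no bacterial counterpart and were added during the evolution of mitochondria. Blood stem cells rely on little mitochondrial respiration at rest, and loss of mitochondrial translation or respiration is known to disturb their differentiation.

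Start sites of 67 of the 76 genes matched promoter windows of 300 bases in RefSeq (build GRCm38.p6, 250 bases before the start and 50 from it). The letters CCGGAAG, the core bound by ETS factors such as GABP, were found on either strand in 24 of 67 windows (35.8%), against 19.7% of the windows of all genes with a row and 9.93% of all windows. GCGCA followed by any base and GCGC, bound by NRF1, a regulator of nuclear genes for mitochondrial proteins, was found in 12 (17.9%, against 11.3% and 5.19%). AAGATGGCG, bound by YY1, was found in 8 (11.9%, against 3.51% and 1.64%). TATAAA, the TATA box, was found in 5 (7.46%, against 8.89% and 15.7%). In all, 39 of the 67 windows held ETS, NRF1 or YY1 letters, a count for which no share of all genes was computed. A match describes the letters and is not a binding site, and the last 3 motifs were searched on both strands too. The windows with ETS letters belonged to genes with a median level of 73.7 FPKM over the libraries, and the other 43 to genes with a median of 38.7 FPKM. The medians lay closer for NRF1 letters (60.4 FPKM with, 52.7 without) and YY1 letters (56.1 with, 52.7 without). These differences were not tested.

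The sequences below, from RefSeq in build GRCm38.p6 and written 5′ to 3′ on the gene's strand, are those of genes on which the results turn. Capitals mark the letters of any of these 4 motifs. Mrps17, Mrpl30 and Mrpl16 are shown with the 150 bases before the start because they were past the threshold in the same direction in both cell populations. Mrpl52 and Mrpl34 are among the genes of highest level and hold ETS letters. Of the other members of highest level, not printed, Mrpl33 has ETS letters in its window. The window of Mrpl20 holds none of the 4 motifs, and Mrpl13 had no matched window. Mrpl46 and Mrps11 are a pair of members that start back to back, shown by the 41 bases between their starts on the plus strand, which is the strand of Mrps11. These lie at chr5:129715347-129715496 (Mrps17, plus strand), chr1:37890327-37890476 (Mrpl30, plus), chr19:11770265-11770414 (Mrpl16, plus), chr14:54426759-54426908 (Mrpl52, plus), chr8:71464776-71464925 (Mrpl34, plus) and chr7:78783090-78783130 (the pair).
Mrps17: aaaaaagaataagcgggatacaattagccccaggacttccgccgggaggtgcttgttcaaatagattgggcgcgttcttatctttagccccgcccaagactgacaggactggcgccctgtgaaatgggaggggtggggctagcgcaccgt
Mrpl30: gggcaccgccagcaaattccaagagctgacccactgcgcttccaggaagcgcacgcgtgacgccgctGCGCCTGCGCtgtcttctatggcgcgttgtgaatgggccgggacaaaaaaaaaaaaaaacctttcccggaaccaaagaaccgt
Mrpl16: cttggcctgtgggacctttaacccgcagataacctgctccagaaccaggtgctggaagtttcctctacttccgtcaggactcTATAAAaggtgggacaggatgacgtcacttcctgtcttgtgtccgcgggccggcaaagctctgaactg
Mrpl52: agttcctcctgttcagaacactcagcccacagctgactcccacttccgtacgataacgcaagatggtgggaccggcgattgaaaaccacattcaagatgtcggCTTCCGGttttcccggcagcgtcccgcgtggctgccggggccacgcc
Mrpl34: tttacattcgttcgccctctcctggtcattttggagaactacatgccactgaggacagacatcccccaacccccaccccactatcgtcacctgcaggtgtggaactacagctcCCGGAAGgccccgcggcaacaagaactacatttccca
Mrpl46-Mrps11: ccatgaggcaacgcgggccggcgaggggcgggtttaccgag

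Transcripts of the mitochondrial ribosome were present in every library. Of the 75 members never named in a joint row, 75 had a row in all 4 libraries (100%), against 66.4% of 12417 genes, 94.6% of 74 cytosolic ribosomal protein genes and 97.3% of 75 genes for oxidative phosphorylation subunits. The remaining member, Mrpl53, stood at 174 and 88.1 FPKM in WT and GRK6-/- HSC and at 109 FPKM in GRK6-/- CLP, and in WT CLP shared a row of 70.7 FPKM with Ccdc142, an overlapping gene on the opposite strand, so it enters no ratio. The median level of the 75 was 60.5 FPKM and 63.9 in the WT and GRK6-/- HSC libraries and 38.6 and 35.0 in the matching CLP libraries. That is above 86.5%, 87.9%, 78.2% and 76.1% of the genes with a row in those libraries.

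The members together made up 1.01% and 1.03% of the FPKM sum in the WT and GRK6-/- HSC libraries, and 0.734% and 0.785% in the CLP libraries. Both HSC libraries thus stood above both CLP libraries. The shares of cytosolic ribosomal protein genes were 19.4%, 21.6%, 24.0% and 15.7% in the same order, highest in WT CLP. Those of oxidative phosphorylation genes were 4.13%, 4.15%, 3.77% and 3.6%. By median level, a different measure, cytosolic ribosomal protein genes stood at 825, 862, 702 and 668 FPKM. Oxidative phosphorylation genes had medians of 308, 313, 249 and 234 FPKM. Mrpl genes summed to 4650, 4966, 3533 and 3072 FPKM and Mrps genes to 1736, 2203, 1214 and 1626 FPKM. The Mrpl sum was therefore 2.68, 2.25, 2.91 and 1.89 times the Mrps sum, lower in each GRK6-/- library than in the WT library of its population.

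By mean level over the 4 libraries, the most abundant member was Mrpl52, a large-subunit protein with no bacterial counterpart. It stood at 601 FPKM and 573 in the WT and GRK6-/- HSC libraries and 177 and 355 in the matching CLP libraries. It was the highest member in every library except WT CLP. Mrpl33, homologous to bacterial L33, followed at 363, 375, 354 and 156 FPKM, and Mrpl34, homologous to L34, at 253, 304, 364 and 242 FPKM. Mrpl20, at 231, 323, 217 and 268 FPKM, and Mrpl13, at 269, 182, 210 and 142 FPKM, came next. These 5 are all large-subunit genes. At the other end, Mrpl1, whose bacterial homologue forms the mobile L1 stalk, stood at 0.202, 2.29, 9.13 and 1.15 FPKM, which is about 2 fragments in WT HSC. The other low members were Mrpl17 (9.06, 11.1, 11.3 and 11.5 FPKM), Mrpl35 (5.70, 26.5, 7.0 and 8.13 FPKM), Mrps31 (2.18, 14.8, 21.4 and 11 FPKM) and Mrpl11 (25.9, 12.8, 12.8 and 2.14 FPKM). With 1 library per group, the order of neighbours in this ranking has no replicate spread to be judged by.

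**Figure D1:**
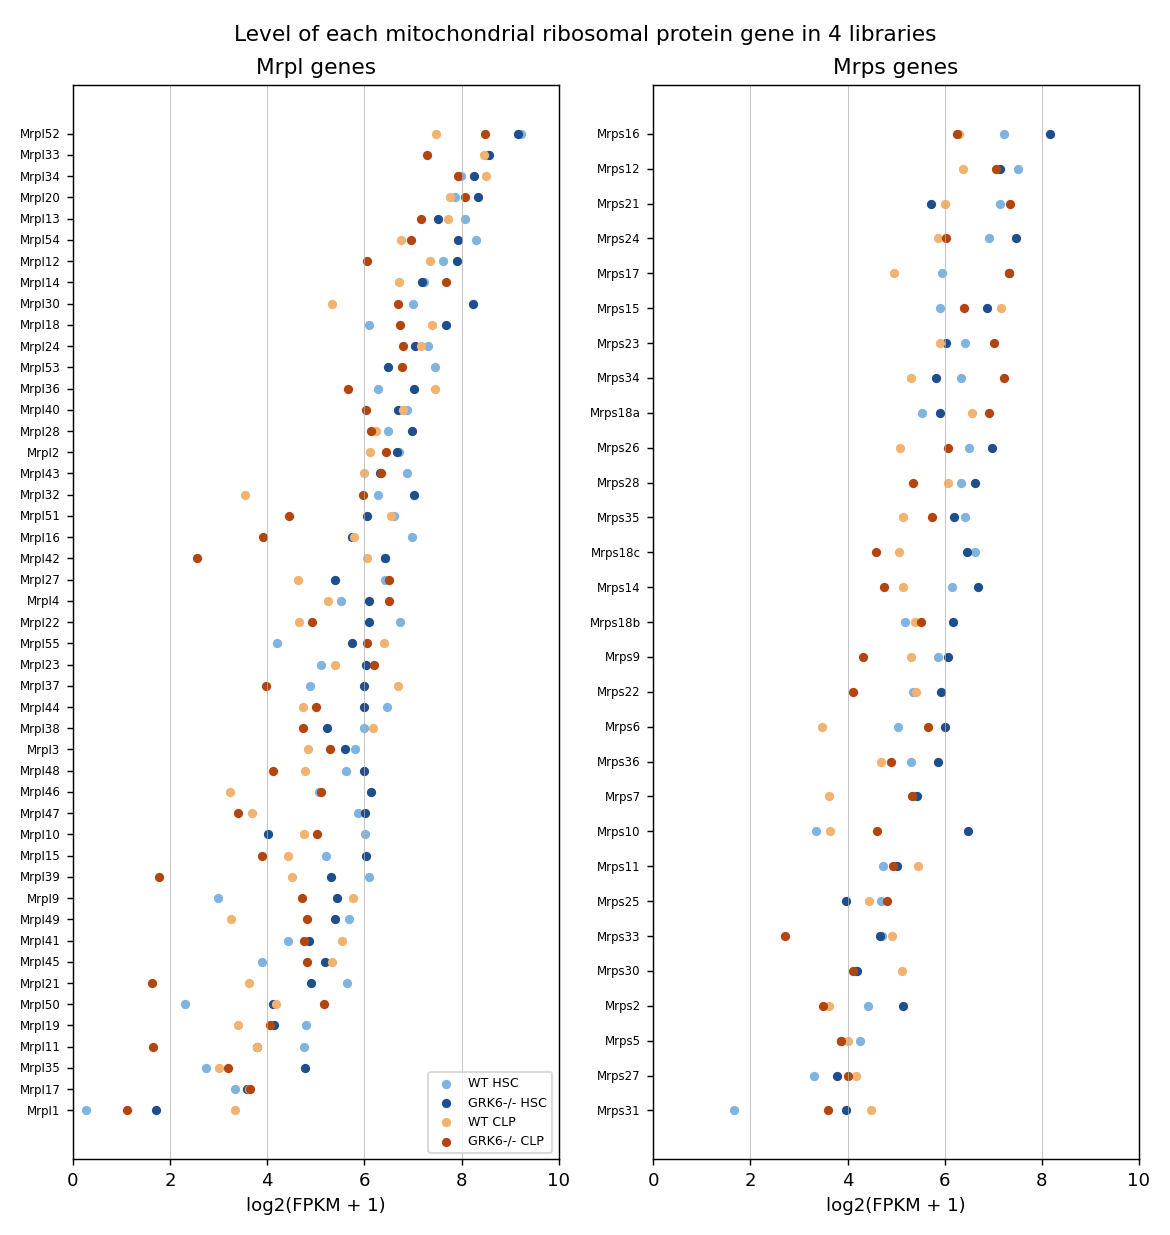
The level of each Mrpl gene (left) and Mrps gene (right) in log2(FPKM + 1), ordered by mean level, with 1 point for each of the 4 libraries. Mrpl52 is highest and Mrpl1 lowest, and many rows have orange CLP points to the left of blue HSC points, while Mrpl17 and Mrps5 show 4 points close together.

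The spread of a member over the 4 libraries, taken as its highest minus its lowest log2(FPKM + 1), had a median of 1.74 and ran from 0.31 for Mrpl17 to 4.33 for Mrpl39. The other steady members above 10 FPKM were Mrps5 at 18.2, 13.5, 15.2 and 13.6 FPKM, Mrpl24 at 157, 130, 142 and 109 FPKM, Mrpl20 and Mrpl34. Across the 75 members, Pearson's r of log2(FPKM + 1) was 0.818 between the 2 HSC libraries, 0.643 between the 2 CLP libraries and 0.638 to 0.727 between an HSC and a CLP library. Across all 76, the mean level fell with the length of the longest annotated transcript (r = -0.607, lengths of 412 to 6073 bases). These are descriptions over genes that share libraries, with no test.

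The question asked first was whether HSC and CLP differ. Most members stood lower in CLP than in HSC in both genotypes, 51 of 75 (68.0%, against 52.7% of all genes) in WT and 58 of 75 (77.3%, against 52.8%) in GRK6-/-. Both HSC libraries were above both CLP libraries for 32 of 75 members (42.7%), against 17.6% of all 12417 genes and 18.5% of genes with a mean of 10 to 1000 FPKM, and both were below for 5 (6.67%, against 14.2%). The split was alike for Mrpl genes (20 of 46) and Mrps genes (12 of 29). Genes for cytosolic ribosomal proteins gave the same direction, with 39 of 74 (52.7%) above in both HSC libraries and 1 below, and those for oxidative phosphorylation subunits had 23 of 75 (30.7%) above and 2 below. The myeloid marker sum given above was also higher in both HSC libraries than in both CLP libraries. Most of it was Elane, Mpo, Prtn3 and Ctsg, each likewise higher in both HSC libraries. Lyz2, Ltf, Camp, S100a8 and S100a9 did not show that order. The part of these markers in the difference between HSC and CLP was not tested.

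Among large-subunit genes, Mrpl47, a homologue of bacterial L29, was at 57.8 FPKM and 63.8 in the WT and GRK6-/- HSC libraries and 11.9 and 9.57 in the matching CLP libraries. Mrpl21, homologous to L21, was at 48.9, 29.0, 11.4 and 2.09 FPKM, and Mrpl39, which has no bacterial ribosomal counterpart, at 67.3, 38.9, 21.7 and 2.40 FPKM. In these 3 genes the lower HSC value was more than the higher CLP value. Mrpl30, homologous to L30, at 127, 299, 39.5 and 102 FPKM, and Mrpl52 did so too, although the WT HSC and GRK6-/- CLP values of Mrpl30 lay close. Among small-subunit genes, Mrps18c stood at 97.7, 86.5, 32.5 and 23.1 FPKM. Mrps12, homologous to bacterial S12 of the decoding centre, stood at 181, 141, 82.7 and 133 FPKM, and Mrps16, homologous to S16, at 149, 287, 77.3 and 75.5 FPKM.

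The 5 members with both HSC libraries below both CLP libraries were Mrpl17, Mrpl50, Mrpl55, Mrps18a and Mrps27. Mrpl55, a large-subunit gene, stood at 17.4, 53.0, 83.2 and 65.9 FPKM, and Mrpl50 at 3.93, 16.4, 17.1 and 35.0 FPKM. For Mrpl17, whose values are given above, the lowest CLP value was only just past the highest HSC value. The Mrps18 paralogues, which encode 3 related proteins of which Mrps18a sits in the large subunit, went different ways. Mrps18a stood at 45.1, 59.2, 93.6 and 119 FPKM and Mrps18b at 35.1, 71.3, 40.6 and 44.4 FPKM, while Mrps18c was the member of the set that was higher in HSC.

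**Figure D2:**
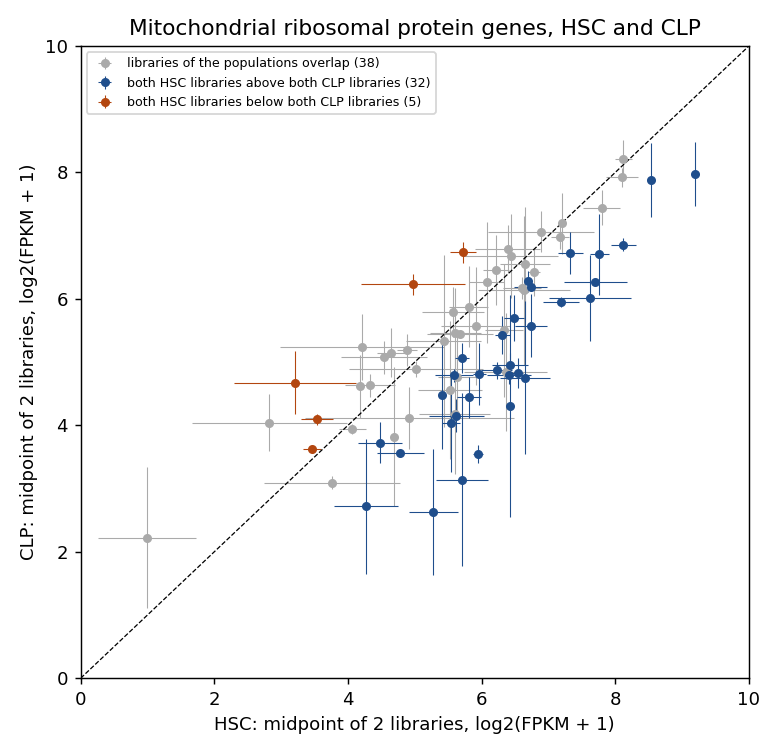
Each point is 1 of the 75 members, placed at the midpoint of log2(FPKM + 1) of the 2 HSC libraries (horizontal) and of the 2 CLP libraries (vertical), with bars reaching to the 2 libraries and a dashed line of equal level. The 32 blue points lie below the line with no overlap between populations, and the 5 orange points lie above it.

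Taken as ratios within a genotype, 37 of 75 members (49.3%) were past the threshold between HSC and CLP in WT, against 46.5% of genes. Of these 25 were higher in HSC (33.3%, background 24.7%) and 12 lower (16.0%, background 21.8%). The median ratio of the members was 0.50, against 0.08 for all genes. In GRK6-/-, 33 members (44.0%, background 45.6%) were past the threshold, 28 higher in HSC (37.3%, background 23.4%) and 5 lower (6.67%, background 22.3%), with a median of 0.65 against 0.08. At a mean of 10 to 100 FPKM, 50.9% of 57 members and 44.9% of all genes were past the threshold in WT. In GRK6-/- these shares were 45.5% of 55 members and 44.6%. At 100 FPKM or more they were 43.8% of 16 members and 23.8% of all genes in WT. In GRK6-/- they were 38.9% of 18 members and 26.4%. Median ratios of cytosolic ribosomal protein genes were 0.13 in WT and 0.52 in GRK6-/-, and those of oxidative phosphorylation genes 0.13 and 0.57.

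In 26 members an exon overlapped an exon of another gene on the opposite strand in GENCODE vM1, and no source used here says that reads were assigned by strand. Mrpl10, Mrpl13, Mrpl21, Mrpl24, Mrpl27, Mrpl33, Mrpl46, Mrpl47, Mrpl49, Mrps6, Mrps11, Mrps18b, Mrps27 and Mrps34 are among them, and their values may include reads of the partner. Over the 50 members in ratios without such an overlap, 12 (24.0%) were higher and 11 (22.0%) lower in HSC than in CLP in WT, with a median of 0.26. These shares are those of all genes (24.7% and 21.8%), so the excess of members higher in HSC in WT was absent among the 50. In GRK6-/- 21 (42.0%, background 23.4%) were higher and 2 (4.00%, background 22.3%) lower, with a median of 0.70. For 21 of the 50 (42.0%), both HSC libraries were above both CLP libraries, and for 4 (8.0%) both were below, against 17.6% and 14.2% of all genes. Between the genotypes, 11 of the 50 were higher and 2 lower in GRK6-/- HSC (22.0% and 4.00%, median 0.40), and 7 were higher and 12 lower in GRK6-/- CLP (14.0% and 24.0%, median -0.24), beside the values for all 75 given below.

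Leaving out 1 library at a time kept the direction of the HSC and CLP difference. Without GRK6-/- CLP, the library rich in Hba-a2, both HSC libraries were above WT CLP for 42 members (56.0%, against 33.0% of all genes) and below it for 18 (24.0%, against 31.3%). Without WT HSC, the counts were 40 (53.3%, against 34.2%) above and 9 (12.0%, against 23.4%) below. Without GRK6-/- HSC they were 40 (53.3%, against 32.5%) above and 17 (22.7%, against 24.3%) below, the second near the share of all genes. Without WT CLP they were 44 (58.7%, against 33.0%) and 14 (18.7%, against 33.8%). Fitted with limma over the 4 libraries with population and genotype as terms, which leaves 1 residual degree of freedom, 0 of 75 members passed an adjusted p of 0.05 for population, the lowest adjusted p being 0.817. At an unadjusted p under 0.05, 3 of 75 passed in limma (4.00%, against 5.41% of 11230 genes), which is no more than the share of all genes. They were higher in HSC and were Mrpl21 (log2 2.64 ± 0.95, SE, unadjusted p = 0.0228), Mrpl39 and Mrpl47. No group has a replicate library, so the error of this fit is not a spread between replicates. The fit therefore cannot decide the population difference of single members. From the same 4 libraries, the median limma estimate for population was 0.60 over the 75 members and 0.06 over the 11230 genes.

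The next question was whether loss of GRK6 went with other levels of these genes. In HSC, fewer members than genes in general were past the threshold between the genotypes. They numbered 18 of 75 (24.0%), against 37.4% of 11624 genes with a row in either library. Of these 14 were higher in GRK6-/- (18.7%, background 19.3%) and 4 lower (5.33%, background 18.0%), and the median ratio was 0.27 against 0.05 for all genes. The erythroid marker sum moved beside it, from 38.1 to 746 FPKM. Most of the second value was Car1, at 24.5 FPKM in WT HSC and 612 in GRK6-/- HSC, with Hba-a2 at 5.98 and 53.1. Levels bear on such shares, and among genes with a mean of 10 to 100 FPKM 25% of 52 members and 35.6% of all genes were past the threshold, and at 100 FPKM or more 14.3% of 21 members and 19.8% of all genes. Only 9.59% of the cytosolic ribosomal protein genes and 10.7% of the oxidative phosphorylation genes were.

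Mrps10, homologous to bacterial S10, had the highest ratio in HSC, at 9.21 FPKM in WT HSC and 88.2 in GRK6-/- HSC (3.13), beside 11.4 and 23.2 in CLP of the same genotypes. Mrpl9, homologous to L9, went from 6.93 to 42.1 FPKM (2.44), Mrps31 from 2.18 to 14.8 (2.31), Mrpl35 from 5.70 to 26.5 (2.04) and Mrpl50 from 3.93 to 16.4 (1.82). In each of these 5 the WT HSC value was the lowest of the 4 libraries. It rested on 30, 33, 10, 62 and 24 estimated fragments. The 4 lower members were Mrpl10, homologous to bacterial L10 of the stalk, at 63.8 FPKM in WT HSC and 15.2 in GRK6-/- HSC (-2.0), Mrps21 at 141 and 52.0 (-1.42), Mrpl16 at 126 and 52.5 (-1.24) and Mrpl27 at 85.2 and 41.2 (-1.03).

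In CLP, 28 of 75 members (37.3%) were past the threshold between genotypes, against 50.0% of 11191 genes, 13 of them higher in GRK6-/- (17.3%, background 26.6%) and 15 lower (20.0%, background 23.4%). The median ratio was -0.11, against 0.05 for all genes, and over the 72 members with at least 10 estimated fragments in both libraries it was -0.0076, with 13 higher and 12 lower. Of 46 Mrpl genes, 7 were higher (15.2%) and 13 lower (28.3%), with a median of -0.31. Of 29 Mrps genes, 6 were higher (20.7%) and 2 lower (6.90%), with a median of 0.12, and the difference between these series was not tested. Among genes with a mean of 10 to 100 FPKM, 35.7% of 56 members and 48.1% of all genes were past the threshold, and at 100 FPKM or more 33.3% of 15 members and 25.7% of all genes were. GRK6-/- CLP is also the library with 17220 FPKM of Hba-a2, against 17.4 in WT CLP.

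Mrpl42, a member with no bacterial ribosomal counterpart, had the lowest ratio in CLP, at 65.9 FPKM in WT CLP and 4.89 in GRK6-/- CLP (-3.51), while both HSC libraries were at 84.3 and 85.2 FPKM. Mrpl39 stood at 21.7 and 2.40 (-2.74), Mrpl37 at 102 and 14.7 (-2.71), Mrpl1 at 9.13 and 1.15 (-2.23) and Mrps33 at 29.3 and 5.60 (-2.20). The GRK6-/- CLP value of these 5 rested on 9, 15, 62, 11 and 17 estimated fragments. On the other side, Mrpl32, homologous to bacterial L32 and cut to its mature form by the m-AAA protease, stood at 10.7 and 61.3 FPKM in WT and GRK6-/- CLP (2.41), beside 76.4 and 129 in the HSC libraries. Mrps17, homologous to S17, stood at 30.1 and 158.5 (2.36), Mrps6, homologous to S6, at 10.0 and 49.2 (2.19), Mrps34 at 38.6 and 148 (1.91) and Mrpl46 at 8.41 and 33.7 (1.88). In all 5 of these genes WT CLP was the lowest of the 4 libraries.

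Past the threshold in the same direction in both populations were 4 members. Mrpl30, Mrpl46 and Mrps17 were higher in GRK6-/- in both (3 members, 4.00%, against 5.66% of genes) and Mrpl16, homologous to bacterial L16 near the peptidyl transferase centre, was lower in both (1.33%, against 4.43%). Mrps17 stood at 60.5 and 158 FPKM in WT and GRK6-/- HSC (1.37) and Mrpl46 at 32.5 and 69.0 (1.06). Mrpl30 had ratios of 1.23 in HSC and 1.35 in CLP. Mrpl16 stood at 126 and 52.5 FPKM in HSC and at 54.1 and 14.0 in CLP (-1.24 and -1.87). In the promoters printed above, Mrpl30 holds NRF1 letters and Mrpl16 holds TATAAA. The windows of Mrps17 and Mrpl46 hold TATAAA outside the stretches printed. In the mm9 build of the files these genes lie at chr5:130221381-130224566 (Mrps17), chr1:37947385-37955183 (Mrpl30), chr7:85920227-85927975 (Mrpl46) and chr19:11844905-11849436 (Mrpl16).

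In 5 members (6.67%, against 10.8% of genes) the ratio was past the threshold in opposite directions. Mrpl37, Mrpl9 and Mrpl1 were higher in GRK6-/- HSC and lower in GRK6-/- CLP than in their WT libraries, and Mrps21 and Mrpl27, homologous to bacterial S21 and L27, the reverse. Mrpl37, which has no bacterial ribosomal counterpart, stood at 28.3 and 62.9 FPKM in WT and GRK6-/- HSC and at 102 and 14.7 in WT and GRK6-/- CLP. Mrps21 stood at 141, 52.0, 63.4 and 161 FPKM in the same order and Mrpl27 at 85.2, 41.2, 24.0 and 89.5. Past the threshold in neither population were 38 members (50.7%, against 34.7% of genes).

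**Figure D3:**
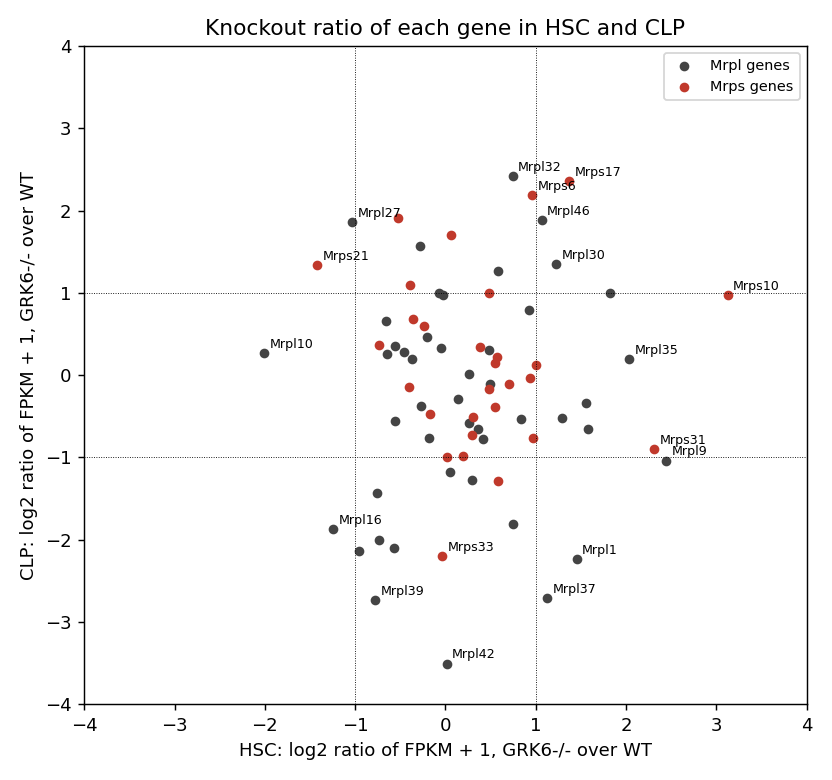
The log2 ratio of FPKM + 1, GRK6-/- over WT, of each of 75 members in HSC (horizontal) and CLP (vertical), with dotted lines at 1 and -1. The points of Mrpl30, Mrpl46 and Mrps17 lie at the upper right, Mrpl16 at the lower left, and Mrpl27, Mrps21, Mrpl1, Mrpl9 and Mrpl37 in the corners of opposite direction.

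Both libraries labelled GRK6-/- were above both WT libraries for 9 members (12.0%, against 14.4% of genes), namely Mrpl4, Mrpl20, Mrpl23, Mrpl35, Mrpl46, Mrps6, Mrps10, Mrps17 and Mrps18b. Both were below for 8 (10.7%, against 13.1%), namely Mrpl13, Mrpl16, Mrpl24, Mrpl38, Mrpl40, Mrpl51, Mrps5 and Mrps33. These shares are near those of all genes, and they changed with the library left out. Without WT HSC, 30 members (40.0%, against 29.8% of genes) were above and 21 (28.0%, against 29.8%) below. Without GRK6-/- HSC, 18 (24.0%, against 32.9%) were above and 29 (38.7%, against 28.6%) below, whereas without GRK6-/- CLP 29 (38.7%, against 33.6%) were above and 11 (14.7%, against 24.0%) below. Without WT CLP the counts were 22 (29.3%, against 26.3%) and 24 (32.0%, against 31.2%). In limma, 0 of 75 members passed an adjusted p of 0.05 for genotype, the lowest adjusted p being 0.999, and 0 passed at an unadjusted p under 0.05.

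**Figure D4:**
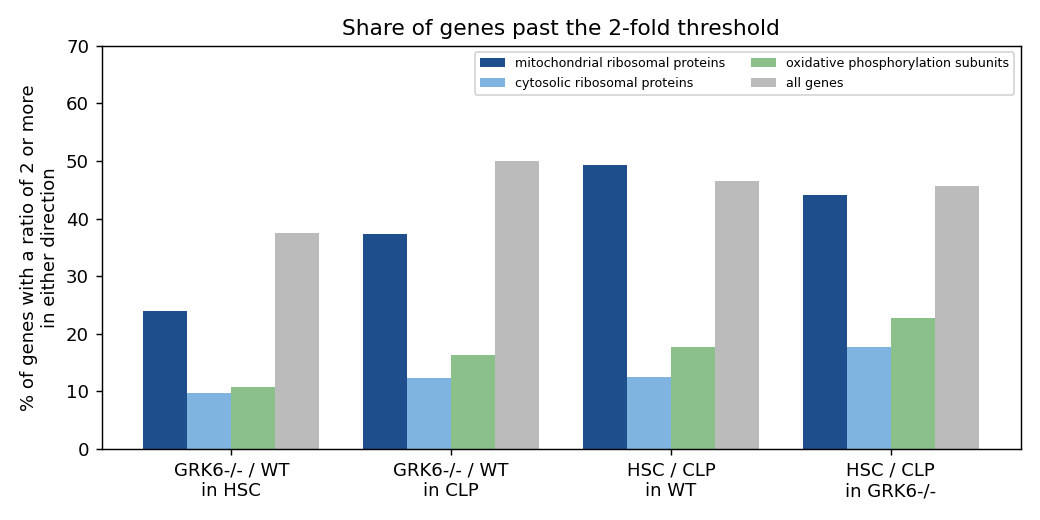
The percentage of genes with a ratio of 2 or more in either direction (vertical axis from 0) in each of the 4 comparisons, for members, cytosolic ribosomal protein genes, oxidative phosphorylation genes and all genes. Members stand below all genes between genotypes (24.0% against 37.4% in HSC, 37.3% against 50.0% in CLP) and near them between populations, taken over all levels. The cytosolic ribosomal protein and oxidative phosphorylation genes stand below members in each comparison.

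By origin, 46 of the 75 have a bacterial homologue and 28 are specific to mitochondria, and Mrps36 is in neither class. In HSC, 12 of the 46 (26.1%) and 6 of the 28 (21.4%) were past the threshold between genotypes, against 37.4% of all genes, and in CLP 16 (34.8%) and 12 (42.9%), against 50.0%. Medians of the 2 classes were 0.29 and -0.01 in HSC and -0.11 and -0.02 in CLP. Both HSC libraries were above both CLP libraries for 22 of the 46 (47.8%) and 9 of the 28 (32.1%). No test sets these classes apart.

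Genes that work with the mitochondrial ribosome were read beside it, as lists of 7 to 21 genes. The background for their counts is the same as above, 19.3% of all genes higher and 18.0% lower in GRK6-/- HSC and 26.6% higher and 23.4% lower in GRK6-/- CLP, and at these sizes 1 or 2 genes move a share far. Of 7 ribosomal proteins with other names, 0 were past the threshold between genotypes in HSC and 2 were lower in CLP. These were Dap3, a GTP-binding small-subunit protein, at 24.1 and 21.0 FPKM in WT and GRK6-/- HSC and at 25.5 and 4.36 in WT and GRK6-/- CLP (-2.31 in CLP), and Chchd1 at 127, 221, 180 and 47.4 FPKM (-1.90 in CLP). Of 14 translation factors, 4 were higher and 3 lower in HSC, and 4 of 13 higher and 2 lower in CLP. Gfm1, the elongation factor that moves the ribosome along the mRNA, stood at 14.5 and 3.58 FPKM in HSC and at 4.20 and 15.9 in CLP (-1.76 and 1.70). Mtrf1l, a release factor, went the same ways (-3.13 and 3.03). Gfm2, which recycles the ribosome, had no row in either WT library and 3.65 and 3.74 FPKM in GRK6-/- HSC and CLP, and Mtrf1 had ratios of 1.16 and -2.65.

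Of 21 genes for assembly and rRNA modification, 5 were higher and 2 lower in HSC, and 11 higher and 4 lower in CLP, with medians of -0.10 and 1.15, against 0.05 for all genes in both. Trub2, a pseudouridine synthase, stood at 16.7 and 43.9 FPKM in HSC and at 0.277 and 19.6 in CLP (1.34 and 4.01). Mtg1, a GTPase of large-subunit assembly, and Mrm1, an rRNA methyltransferase, were lower in HSC and higher in CLP (-1.30 and 1.39, -2.20 and 1.38). Ftsj2 had ratios of 1.46 and 1.53 and Mettl17 of 1.44 and -3.03. A further list held 12 genes for mitochondrial DNA replication, transcription and RNA processing. In HSC, 2 of them were higher and 1 lower, and in CLP 3 were higher and 5 lower. The RNA helicase gene Supv3l1 stood at 0.526 and 16.2 FPKM in HSC and at 12.0 and 26.9 in CLP (3.49 and 1.1). Polg2, the accessory subunit of the mitochondrial DNA polymerase, had ratios of 1.02 and 1.17.

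Of the regulators of nuclear genes for mitochondrial proteins, 5 of 7 were higher (background 19.3%) and 1 lower (background 18.0%) in HSC. In CLP, 2 of 8 were higher (background 26.6%) and 3 lower (background 23.4%). Nrf1 stood at 2.42 and 20.8 FPKM in WT and GRK6-/- HSC and at 7.92 and 23.9 in WT and GRK6-/- CLP (2.67 and 1.48). Ppargc1b, a coactivator, had ratios of 3.53 and 1.98, from 0.567 FPKM in WT HSC and no row in WT CLP. Pprc1, a related coactivator, stood at 9.80, 70.3, 109 and 12.4 FPKM (2.72 and -3.03), and Myc at 41.0, 129, 81.6 and 21.4 FPKM (1.63 and -1.89). The regulators thus did not share a direction, with Nrf1 and Ppargc1b higher in both populations and Pprc1 and Myc higher in HSC and lower in CLP. Of the GABP subunits, Gabpb1 had ratios of -1.04 and 0.71, and Gabpa went the other way, with ratios of 1.96 and -0.95.

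Many of these genes share a promoter region with another gene. Transcription starts of a neighbour on the opposite strand, pointing away within 1000 bases, were annotated for 18 of 76 members (23.7%), against 11.2% of 12116 protein-coding genes with a row (GENCODE vM1, mm9). Mrpl46 and Mrps11 were the pair in which both are members, 53 bases apart in that annotation. Mrpl46 stood at 32.5, 69.0, 8.41 and 33.7 FPKM over the libraries, and Mrps11 at 25.5, 31.6, 42.5 and 29.5 FPKM. The ratios between genotypes were 1.06 and 0.30 in HSC and 1.88 and -0.51 in CLP, so the partners did not move alike. Mrpl30 and Mitd1, 66 bases apart, went opposite ways in HSC, with Mitd1 at 53.4 and 8.03 FPKM (-2.59) and at 31.5 and 18.6 FPKM in CLP (-0.73). Mrps21 and C920021L13Rik start 6 bases apart, and the neighbour had no row in GRK6-/- HSC or GRK6-/- CLP. Mrpl37 and Cyb5rl, 120 bases apart, were both lower in GRK6-/- CLP than in WT CLP, Cyb5rl having 11.9 FPKM in WT CLP and no row in GRK6-/- CLP.

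**Figure D5:**
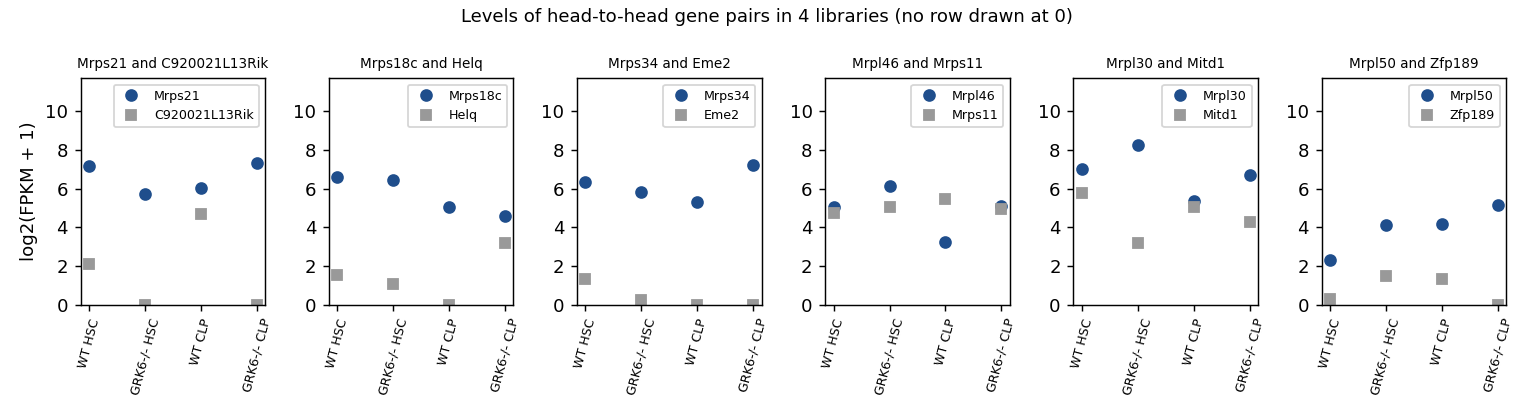
Levels in log2(FPKM + 1) of the 6 head-to-head pairs with the shortest distance between starts, by library, with the member as a blue circle and its neighbour as a grey square, and a gene with no row drawn at 0. Mrpl46 is above Mrps11 in GRK6-/- HSC and below it in WT CLP, and Mrpl30 and Mitd1 are furthest apart in GRK6-/- HSC.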

How the data were processed

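RNA-seq was made from pooled cells of each population and genotype by poly(dT) priming and PCR amplification without molecular identifiers. Per the labels and methods, the authors aligned paired reads to mm9 with the Tuxedo suite (TopHat 1.4.0 in the submitters' processing notes) and deposited FPKM per gene, the unit used here. Rows of a symbol were summed, no row was taken as 0, and 180 genes named in joint rows were left out. The depth was estimated from the spacing of low FPKM values, checked on simulated data. Fragments per gene use the longest GENCODE vM1 transcript and cover counting error only. Ratios used a pseudocount of 1 and a log2 threshold of 1, with Python 3.11.15, and the fit over libraries used limma 3.58.1. With 1 library per group, no ratio was tested. Members named are those with the highest or lowest ratios, those past the threshold in both populations, the highest, lowest and steadiest levels, the Mrps18 paralogues and joint rows; further members and neighbours named were chosen after their values were seen. The members and gene lists were chosen with earlier results of these data known. Alternatives were the pseudocount, a filter on low values, rescaling, the threshold, the handling of rows and, added after seeing the data, filters on fragments and on overlapping exons.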

Additional observations from a re-analysis of the deposited data

Results flagged for a closer look

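The ratio between genotypes had opposite directions in HSC and CLP, past the threshold in both, for 5 members, and this difference between populations was not tested. The same pattern was seen in 10.8% of all genes, with 1 library per group. The log2 ratio of FPKM + 1, GRK6-/- against WT, was 1.45 in HSC and -2.23 in CLP for Mrpl1, -1.03 and 1.86 for Mrpl27, 1.13 and -2.72 for Mrpl37, 2.44 and -1.04 for Mrpl9, and -1.42 and 1.33 for Mrps21. The HSC ratio of Mrpl1 rests on about 2 fragments in WT HSC, and its 95% counting interval without the added 1 runs from 1.59 to 6.67.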

How the results depend on the processing

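Among the single genes followed under alternatives, no ratio past the threshold reversed. Of ratios near 0, Mrps17 between HSC and CLP in GRK6-/- turned from -0.0021 to 0.0080 after rescaling. With a log2 threshold of 2, the counts past it were 5 in HSC between genotypes (4 higher, 1 lower), 11 in CLP (3 higher, 8 lower), 9 between HSC and CLP in WT (5 higher, 4 lower) and 7 in GRK6-/- (7 higher, 0 lower), smaller because fewer genes reach it. No share of all genes was computed at this threshold, so these counts and their directions cannot be judged as particular to the members. Limited to the 72 members with at least 10 estimated fragments in both libraries, an alternative chosen after seeing the data, the median ratio between genotypes in CLP was -0.0076, and the counts were 13 higher and 12 lower, so their balance turned from 13 and 15. Over the 50 members with no exon overlap, also added after seeing the data, 23 members were past the threshold between HSC and CLP in WT, fewer also because fewer were counted. Their median ratio was 0.2563 in that comparison, 0.4032 between genotypes in HSC and -0.2410 between genotypes in CLP. Both HSC libraries were above both CLP libraries for 21 of the 50. The other 92 counts and medians moved by less than the set limits. Single genes were followed only for members named by the rules above, under a pseudocount of 0.1, rescaling and the highest row of a symbol. Of their ratios, 6 crossed the threshold upward and 2 downward, Mrpl52 in CLP (0.99) and Mrpl10 between populations in GRK6-/- (-1.0, from -1.01) after rescaling. More members crossed with a pseudocount of 5. The counts went from 18 to 14 in HSC and from 28 to 26 in CLP between genotypes, and from 37 to 32 between HSC and CLP in WT. With a pseudocount of 0.1 they were 19, 33 and 39. No share of all genes was computed at these settings. No paired analysis was possible because each group holds 1 library and the labels pair none, although limma compared genotypes with population as a term, and for the same reason no library of a group could be left out of a ratio. Depth limits Mrpl1, Mrpl11, Mrpl21 and Mrpl42 in GRK6-/- CLP, which had 5 to 11 estimated fragments.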
